A study of Rattus norvegicus with 9 samples.

Results

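Kidneys of the spontaneously hypertensive rat (SHR) were compared with kidneys of the Dahl salt-resistant rat (Dahl R), an inbred line selected not to become hypertensive on a salty diet. The comparison takes every array that the sample titles assign to these strains, 3 SHR and 3 Dahl R, which is 6 of the 9 arrays of the study; the other 3 hold Dahl S, the salt-sensitive line selected from the same stock. All rats were male, born on 1 day, weaned at 30 days, kept afterwards on chow with 0.3% salt and studied at 53 days of age, so no group had a salt load. Strain is the only labelled difference, no allele or agent is given, and each array carries Cy3-labelled RNA made from 1 μg of whole-kidney RNA. Blood pressure is not among the values used here. Nothing in the labels tells which rats were littermates or which kidneys were prepared together; a p-value here therefore reflects only how these samples vary, and 3 arrays per strain limit the precision.

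The kidney sets blood pressure over the long term by deciding how much of the filtered sodium is returned to the blood. Sodium is taken up along the proximal tubule, the thick ascending limb, the distal convoluted tubule and the collecting duct, and the renin-angiotensin system, aldosterone, arachidonic acid products and natriuretic peptides tune that uptake. SHR and Dahl R are unrelated inbred strains, so genes can differ between them for any inherited reason, of which blood pressure is only one. The probes follow a reference rat sequence, and whether a sequence difference under a probe moved its signal was not tested. In whole kidney, fewer cells of a type and less RNA per cell cannot be told apart.

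Levels are log2 signals relative to the 75th percentile of the array, and differences are SHR minus Dahl R on that log2 scale, with their standard error (SE) and the adjusted p of limma with Benjamini-Hochberg correction over all tested probes. A gene was called at an adjusted p under 0.05. Of 24684 probes, 16274 had enough signal to be tested, and 2219 were called (13.6%). Of these, 1288 were higher in SHR (7.91%) and 931 lower (5.72%), so 58.0% of the calls were higher, and 914 differed at least 2-fold (5.62%). With normexp background correction in place of the scanner's own, 426 were called, 174 higher and 252 lower, so that 40.8% were higher. The spread behind each p was estimated over all 9 arrays, Dahl S included. With the 6 SHR and Dahl R arrays alone 1171 probes were called, 623 higher and 548 lower. The median difference over all tested probes was 0.10. By size, 1305 called probes differed by less than 1, 677 by 1 to 2, 155 by 2 to 3, 35 by 3 to 4 and 47 by more than 4. The strains did not overlap for 39.4% of the tested probes. The plot of difference against level shows that large differences occurred in both directions and at most levels.

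**Figure D1:**
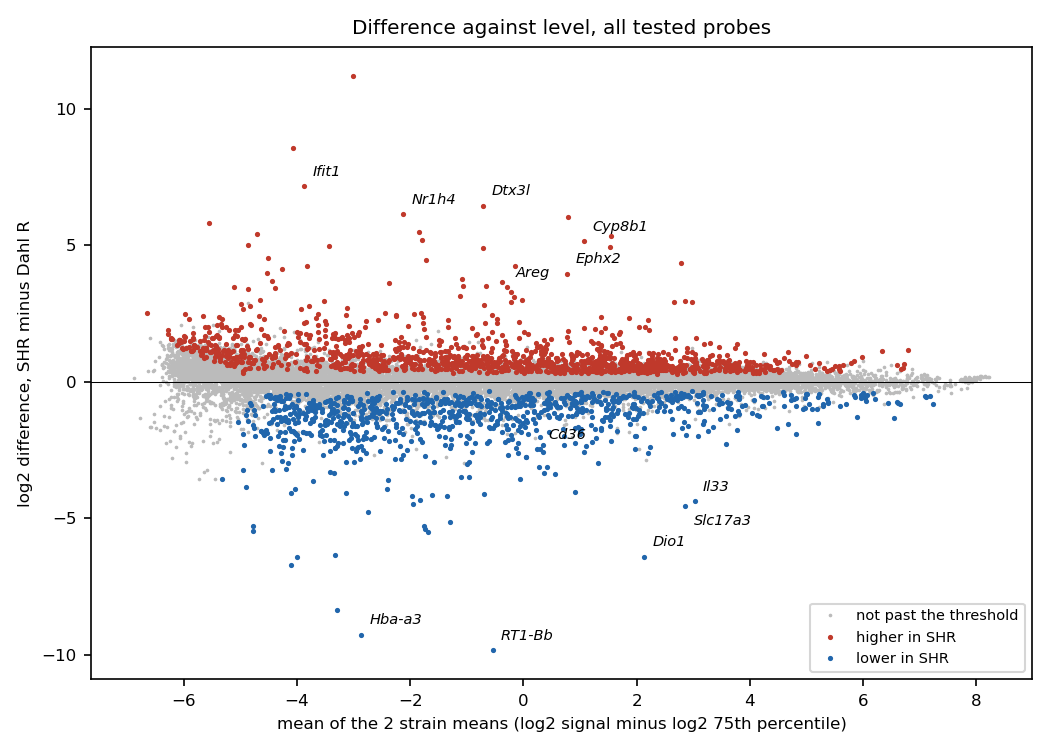
Difference between the strains (log2, SHR minus Dahl R, vertical axis) against the mean of both strain means (log2 signal minus log2 75th percentile, horizontal axis) for the 16274 tested probes. Red points are the 1288 probes called higher in SHR, blue points the 931 called lower, and grey points did not pass the threshold.

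The array of SHR replicate 3 stood apart from the others and touches every result. It had 43.1% of its probes well above background against 60.1% to 70.3% on the other 8 arrays, a median local background of 88 against 43 to 45, and a 75th percentile of 1462 against 2120 to 2751. Across tested probes its log2 signals correlated with those of SHR replicates 1 and 2 at r of 0.957 and 0.958, while these correlated with each other at 0.994 and the Dahl R arrays among themselves at 0.996 to 0.997; these r values run over probes and not over replicates. Of the brightest spots of SHR replicate 1, 48.2% were marked as outliers on SHR replicate 3 and set to missing, so bright genes often rest on 2 SHR arrays. A slide here means the arrays that share a scan time in the file headers, and no other record of the slides was used. SHR replicate 3 was alone on its slide, so its slide and its raised background cannot be told apart. SHR replicates 1 and 2 shared a slide with Dahl R replicates 2 and 3, and Dahl R replicate 1 lay on another slide with the Dahl S arrays. Without SHR replicate 3, 3788 probes were called, 2050 higher and 1738 lower (23.3% of those tested), among them 2137 of the 2219. Within the shared slide 2135 were called, 1054 higher (6.49%) and 1081 lower (6.66%); 1406 of the 2219 were called there too, and all 2206 with a value there had the same sign. These arrays are among the 6 that gave the 2219 calls, so like signs were likely beforehand and are no independent check. The other arrays bore on the counts as well, with 999 to 1193 calls when a Dahl R array was left out and 1824 and 2070 when SHR replicate 2 or 1 was. Of 129 called probes named by a rule of size or list, 80 lost their call with none of the 6 arrays left out, and leaving out SHR replicate 3 lost 4. The 80 include Krt18, which has no value without SHR replicate 3. Calls that did not withstand this are given as such below with the highest adjusted p reached.

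**Figure D2:**
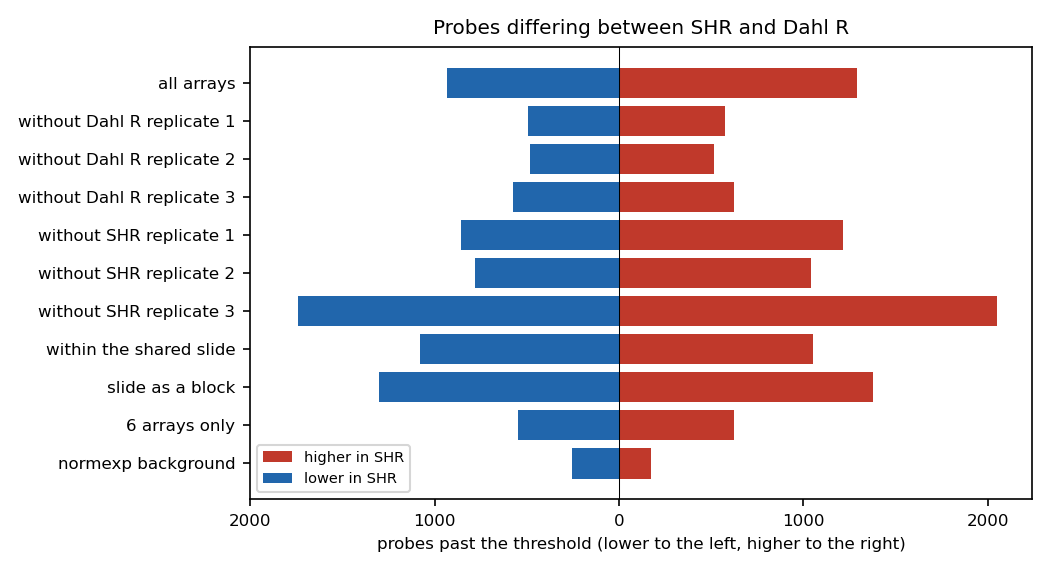
Number of probes called lower in SHR (blue, to the left) and higher in SHR (red, to the right) with all arrays, with each of the 6 arrays left out, within the shared slide, with slide as a block, with the 6 arrays alone and with normexp background correction. The count runs from 426 with normexp to 3788 without SHR replicate 3, around 2219 with all arrays.

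The genes most above Dahl R in SHR kidney came from several kinds of biology: antiviral response, bile acid synthesis and sensing, purine breakdown, and detoxification. Among the coding genes reported here as higher in SHR, the largest difference was in Ifit1, an interferon-induced protein that binds foreign RNA. Its levels were -0.70, -0.40 and 0.23 on SHR arrays 1, 2 and 3, and -7.74, -7.49 and -7.14 on the Dahl R arrays. All SHR arrays were bright and no Dahl R array was well above background, so the difference is a bound: at least 112-fold higher in SHR (fitted difference 7.17 ± 0.30, adjusted p = 8.6e-06). For this and later bounds, the dim strain was taken on each array at its measured signal or, if greater, at the dimmest signal that any detected probe gave there. These bounds hold only for the scanner's own background correction. With normexp every probe given such a bound had a smaller fitted difference, for Ifit1 4.46 against a bound of 6.81 in log2. BC088860 (2.80, adjusted p = 0.181), Cst7 (-2.52, 0.0832) and MRAK050663 (-2.30, 0.127), described below, were then not called by limma. Dtx3l, a ubiquitin ligase that acts in interferon and DNA damage responses, was at 2.41, 2.43 and 2.68 in SHR and at -3.86, -4.08 and -3.90 in Dahl R. The strains lay far apart with little spread within either, a difference of 6.45 ± 0.13 (87.6-fold, adjusted p = 2.82e-07).

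Both Nr1h4 and Cyp8b1, which act in the bile acid system, were higher in SHR. Nr1h4, which encodes the bile acid receptor FXR, was at 0.77, 0.80 and 1.27 in SHR and at -5.29, -5.00 and -5.31 in Dahl R, a difference of 6.15 ± 0.25 (70.8-fold, adjusted p = 8.59e-06). Cyp8b1, the sterol 12-alpha-hydroxylase that directs bile acid synthesis towards cholic acid, was at 3.65 and 3.65 on the 2 usable SHR arrays and at -1.18, -1.33 and -1.98 in Dahl R. The strains were separated by 5.15 ± 0.23 (35.6-fold, adjusted p = 3.66e-05). Xdh, the enzyme that forms uric acid from purines, was at -2.76, -2.68 and -2.47 in SHR, while no Dahl R array was well above background (-8.05, -8.64 and -8.70), so it was at least 22-fold higher in SHR (fitted difference 5.82 ± 0.21, adjusted p = 4.46e-06).

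Other genes higher in SHR were Stbd1, a glycogen-binding protein (5.50 ± 0.12, 45.2-fold), and Asb3, an adaptor of ubiquitin ligases (5.21 ± 0.11, 37.1-fold), both with an adjusted p of 2.82e-07. Ephx2, the soluble epoxide hydrolase that breaks down vasodilator epoxides of arachidonic acid, was at 2.68 and 2.84 on 2 usable SHR arrays and at -1.31, -1.24 and -1.07 in Dahl R (3.96 ± 0.12, 15.6-fold, adjusted p = 8.04e-06). Nefh, a neurofilament subunit, was 13.6-fold higher (3.77 ± 0.17, adjusted p = 1.07e-05). Ugt2a1, a glucuronosyltransferase, differed by 4.14 ± 0.22; in Dahl R 1 of 3 arrays detected it, so no fold is given. For all 10 of these genes the strains did not overlap on the usable arrays, which the rule that chose them required.

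**Figure D3:**
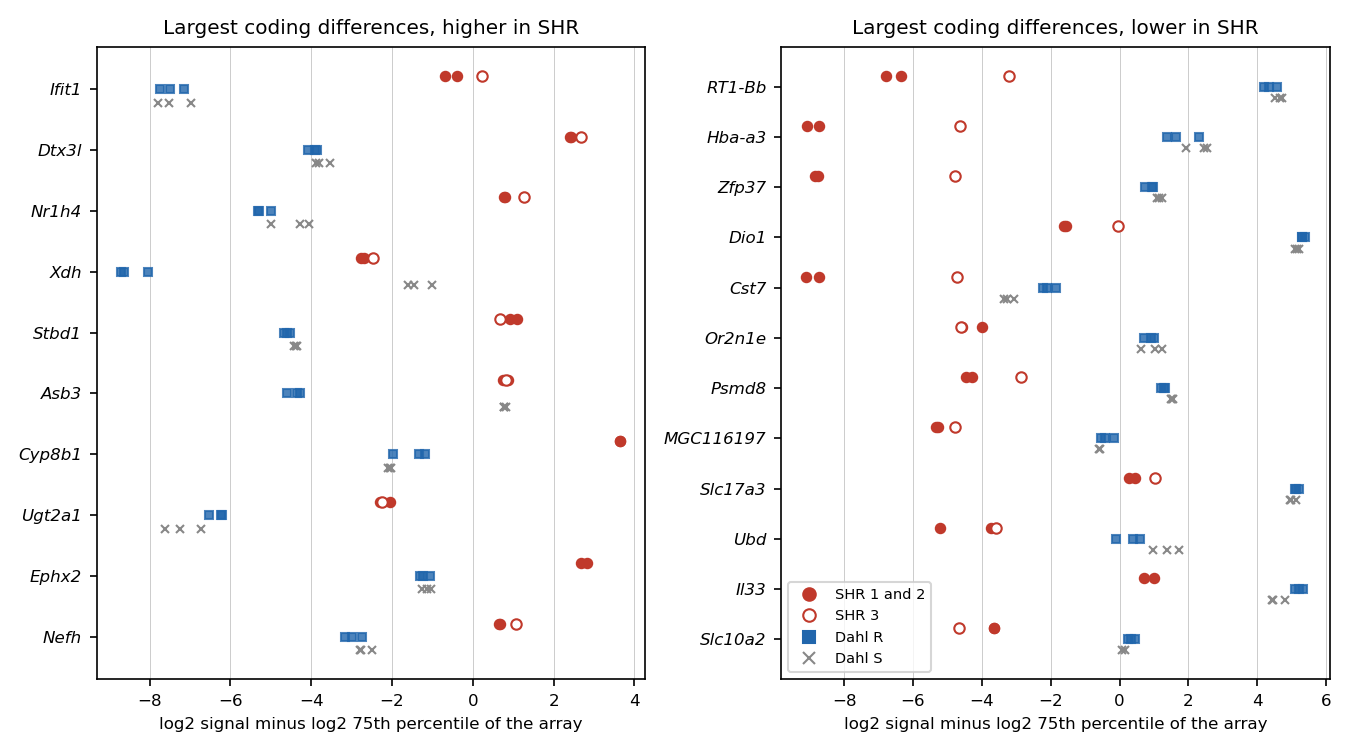
Level on each array (log2 signal minus log2 75th percentile of the array, horizontal axis) of 10 coding genes higher and 12 lower in SHR among those with the largest differences, in SHR 1 and 2 (filled red circles), SHR 3 (open red circles), Dahl R (blue squares) and Dahl S (grey crosses). For most genes lower in SHR, such as Hba-a3 at -8.74, -9.09 and -4.65, SHR 3 lies above SHR 1 and 2, and Dahl S lies beside Dahl R for all but Xdh and Asb3 among the genes higher in SHR.

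The 12 coding genes furthest below Dahl R included immune genes, a globin, a zinc finger gene, a thyroid hormone enzyme and 2 transporters. RT1-Bb, a class II histocompatibility beta chain that presents peptides to helper T cells, was at -6.36, -6.79 and -3.22 in SHR and at 4.57, 4.34 and 4.20 in Dahl R. It was a bright gene in every Dahl R kidney and well above background on 1 of 3 SHR arrays, so its difference is given without a fold (-9.83 ± 0.82, adjusted p = 0.000293; -10.95 without SHR replicate 3). Dio1, the deiodinase that converts thyroxine to active thyroid hormone, was at -1.55, -1.60 and -0.05 in SHR and at 5.31, 5.30 and 5.39 in Dahl R. All 6 arrays measured it, and it was 84.2-fold lower in SHR (-6.40 ± 0.37, adjusted p = 5.45e-05; -6.91 without SHR replicate 3).

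Hba-a3, an alpha globin gene with near-identical copies, and Zfp37, a zinc finger protein, were not well above background on any SHR array. Hba-a3 was at -8.74, -9.09 and -4.65 in SHR and at 1.63, 1.37 and 2.30 in Dahl R, at least 193-fold lower (fitted difference -9.26 ± 1.05, adjusted p = 0.00135; -10.68 without SHR replicate 3). Zfp37 was at -8.76, -8.84 and -4.79 in SHR and at 0.97, 0.73 and 0.93 in Dahl R, at least 104-fold lower (-8.34 ± 0.96, adjusted p = 0.00144; -9.68 without SHR replicate 3). In both, the SHR replicate 3 value lies at the higher floor of that array. Cst7, which encodes cystatin F, a protease inhibitor of immune cells, was at least 13.7-fold lower (-5.46 ± 1.02, adjusted p = 0.012; -6.87 without SHR replicate 3), and its call was lost without Dahl R replicate 1 (adjusted p = 0.0523).

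Slc17a3, an organic anion transporter of the proximal tubule that handles urate, was at 0.45, 0.28 and 1.02 in SHR and at 5.2, 5.08 and 5.12 in Dahl R. The strains were well apart, and the gene was 23.5-fold lower in SHR (-4.55 ± 0.18, adjusted p = 7.61e-06). Il33, an alarm cytokine, was at 0.71 and 0.99 on the 2 usable SHR arrays and at 5.08, 5.32 and 5.21 in Dahl R (-4.36 ± 0.16, 20.5-fold lower, adjusted p = 1.58e-05). Ubd, an interferon-induced ubiquitin-like protein, was 22.2-fold lower (-4.47 ± 0.44, adjusted p = 0.000661), and Slc10a2, the sodium-coupled bile acid transporter, was lower too (-4.32 ± 0.28, adjusted p = 0.000205). Without SHR replicate 3 the differences were -4.77 for Ubd and -3.98 for Slc10a2. Psmd8, a proteasome subunit (-5.15 ± 0.37, or -5.65 without SHR replicate 3), Or2n1e, an olfactory receptor (-5.26 ± 0.22), and MGC116197 (-4.75 ± 0.18) completed the list. For Ubd, Slc10a2, Psmd8, Or2n1e and MGC116197, detection reached 2 of 3 SHR arrays and all 3 Dahl R arrays, which leaves the size of the difference less certain.

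The Dahl S arrays also entered the estimate of spread behind every p. Set here beside both strains as levels without a test, the Dahl S kidneys did not take the same side for every gene. Mean Dahl S levels were -7.43 for Ifit1, -3.74 for Dtx3l, -4.44 for Nr1h4, -4.39 for Stbd1 and 5.15 for Dio1, in each case nearer the Dahl R than the SHR level. Against this, Xdh at -1.35, Asb3 at 0.79 and Resp18 at 2.22 were nearer SHR. Among the 10 genes described above as higher than in Dahl R, only Xdh and Asb3 were so placed.

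Noncoding probes differed at a like rate to coding ones: 567 of 4507 were called (12.6%), 322 higher (7.14%) and 245 lower (5.44%), against 1652 of 11767 coding probes (14.0%). The largest difference on the array was in U65217, at 2.71 and 2.46 on 2 usable SHR arrays and at -9.08, -8.25 and -8.53 in Dahl R, where no array was well above background. It was at least 824-fold higher in SHR (fitted difference 11.21 ± 0.37, adjusted p = 9.66e-06). MRAK038897 was at -2.05, -2.45 and -1.51 in SHR and not well above background in Dahl R (at least 34.2-fold higher; 5.41 ± 0.23, adjusted p = 9.51e-06), and XR_007560 was 41.0-fold higher on 2 usable SHR arrays (5.36 ± 0.12, adjusted p = 2.33e-06). BC088860 was at -3.11, -3.34 and -0.66 in SHR, so that SHR replicate 3 read highest, and was at least 24.2-fold higher than in Dahl R (5.01 ± 0.63, adjusted p = 0.00223; 4.15 without SHR replicate 3). BC091362 was at -1.50, -1.26 and -0.11 in SHR, with SHR replicate 3 again the highest, and was 31.5-fold higher (4.98 ± 0.32, adjusted p = 9.25e-05). Its difference was 4.55 without SHR replicate 3.

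Of the 5 noncoding probes named for the largest lower values, 4 were not well above background on any SHR array. X83579 was at -0.72, -0.78 and -0.72 in Dahl R and at -8.46, -9.20 and -4.73 in SHR, at least 33.9-fold lower (fitted difference -6.72 ± 1.00, adjusted p = 0.00454; -8.09 without SHR replicate 3). MRAK134201 was at least 32.4-fold lower (-6.39 ± 0.99, adjusted p = 0.00562; -7.68 without SHR replicate 3) and BC105611 at least 46.0-fold lower (-6.32 ± 0.71, adjusted p = 0.00131; -7.28 without SHR replicate 3). MRuc008qku, at -4.25, -4.57 and -4.53 in SHR and 0.95, 0.91 and 1.01 in Dahl R, was 42.2-fold lower with 2 of 3 SHR arrays well above background (-5.40 ± 0.12, adjusted p = 2.82e-07). MRAK050663 was at least 12.8-fold lower (-5.26 ± 1.02, adjusted p = 0.0145; -6.68 without SHR replicate 3), but this call was lost without Dahl R replicate 1, 2 or 3, with an adjusted p of up to 0.0579.

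Gene lists for pathways and cell types of the kidney were then read one by one. Over all 10688 tested coding genes, 875 were called higher in SHR (8.19%) and 642 lower (6.01%), 14.2% in all, with a median difference of 0.09. Without SHR replicate 3 these shares were 13.1% higher and 10.2% lower, 23.4% in all, with a median of 0.05; within the shared slide they were 6.69% and 6.34%. With normexp 115 of the 10688 were higher and 183 lower, with a median of 0.14. The median was 0.33 with the 75th percentile over unmarked spots. The strains did not overlap on the usable arrays for 41.3% of these genes. Each count below is to be read against these shares, and the lists are described by counts and medians without a test of the list. Over all lists together 130 genes were called, 43 with normexp and 47 with the 75th percentile over unmarked spots. The medians of the renin-angiotensin, bile acid, prostaglandin, interferon, kidney injury, hypertension candidate, thyroid hormone, EGF family, leukocyte, fibroblast and adrenal lists took the other sign under at least 1 other scaling, and no direction of the list is read from them.

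**Figure D4:**
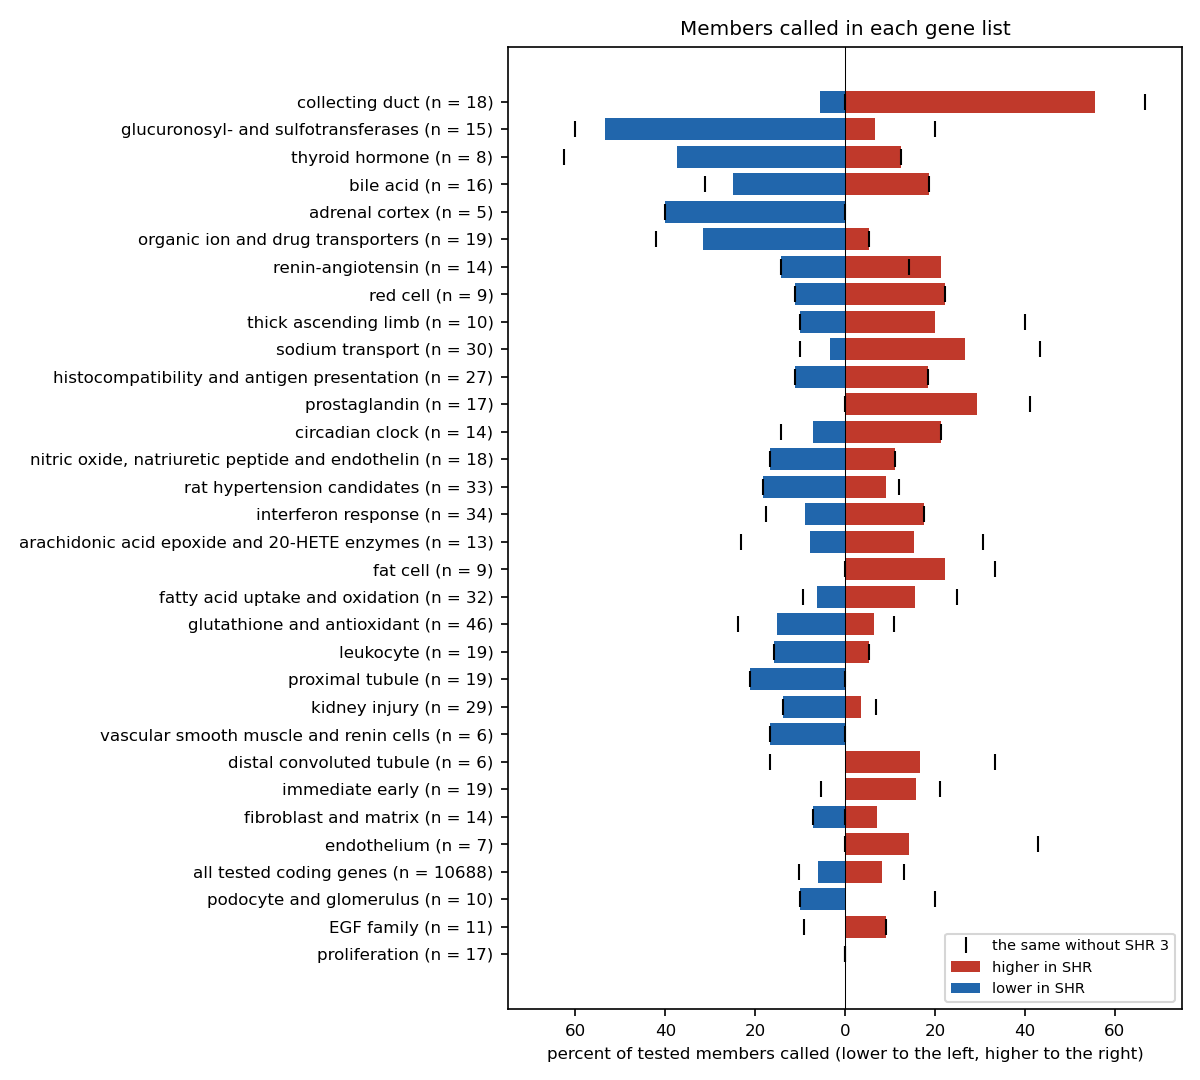
Percent of the tested members of each gene list called higher in SHR (red, to the right) or lower (blue, to the left), with the number tested beside each name; black ticks mark the same percentages without SHR 3. The collecting duct list has 10 of 18 members higher and the glucuronosyl- and sulfotransferase list 8 of 15 lower, against 8.19% and 6.01% of all tested coding genes.

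Collecting duct genes were higher in SHR. Of 18 tested members, 10 were called higher and 1 lower, 17 differed upwards, and the median difference was 0.68 against 0.09 over all tested coding genes. Without SHR replicate 3 the counts were 12 higher and 0 lower with a median of 0.70; within the shared slide 5 were higher and 0 lower, with 12 and 0 at an unadjusted p under 0.05. With normexp, and with the 75th percentile taken over unmarked spots, 2 were called higher and 0 lower. The medians were then 0.68 and 0.95, against 0.14 and 0.33 over all tested coding genes. Scnn1b, the beta subunit of the epithelial sodium channel through which aldosterone raises sodium uptake, was at 1.65, 1.75 and 2.42 in SHR and at 0.37, 0.46 and 0.52 in Dahl R. Every SHR array lay above every Dahl R array, at 2.81-fold (1.49 ± 0.20, adjusted p = 0.0028; 1.25 without SHR replicate 3). The alpha subunit Scnn1a was at -0.08, -0.01 and 0.93 in SHR and -0.80, -0.88 and -0.41 in Dahl R, a difference of 0.98 ± 0.27 that just missed the threshold (adjusted p = 0.0514) and met it without SHR replicate 3 (0.65, adjusted p = 0.021).

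Members of both cell types of the collecting duct were among those called. Rhcg, an ammonia transporter, was 2.06-fold higher on 2 usable SHR arrays (1.04 ± 0.15, adjusted p = 0.00585), Elf5, a transcription factor of principal cells, 1.85-fold (0.89 ± 0.13, adjusted p = 0.00449), and Atp6v0d2, a proton pump subunit of intercalated cells, 1.65-fold (0.73 ± 0.13, adjusted p = 0.011). These and Scnn1b kept their call with each array left out. Aqp2, the water channel that vasopressin moves to the membrane, was at 7.0, 6.74 and 7.01 in SHR and 6.09, 6.24 and 6.52 in Dahl R, without overlap (0.64 ± 0.15, adjusted p = 0.0338), but this call was lost without Dahl R replicate 1 or 2 or SHR replicate 1 (adjusted p of up to 0.121). Aqp4, the basolateral water channel, was higher on 2 usable SHR arrays (1.29 ± 0.25, adjusted p = 0.0177), lost without Dahl R replicate 1 or 2 or SHR replicate 2 (up to 0.0771). Slc26a4, the chloride-bicarbonate exchanger pendrin, was 2.04-fold higher on 2 usable arrays (1.03 ± 0.18, adjusted p = 0.0117), lost without Dahl R replicate 1 or SHR replicate 1 (up to 0.0531).

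The other called members, named after their values were seen, were Foxi1, the master regulator of intercalated cells (1.02 ± 0.22), Atp6v1b1, another proton pump subunit (0.78 ± 0.19), and Slc4a1, the intercalated cell anion exchanger (0.57 ± 0.15), and lost with 1 array left out were Foxi1 without Dahl R replicate 1 or 2 at an adjusted p of up to 0.0835, Atp6v1b1 without any Dahl R array or SHR replicate 1 or 2 at an adjusted p of up to 0.113, Slc4a1 without any Dahl R array or SHR replicate 1 at an adjusted p of up to 0.157. Aqp3 (0.06), Gata3 (0.06) and Car2 (0.15) did not pass. The 1 lower member, the keratin Krt18, rests on SHR replicate 3 alone of the SHR arrays (-1.85 against -0.79, -0.36 and -0.70 in Dahl R) and has no value without it. The signals of 9 members usable on all 6 arrays, each relative to the 75th percentile, summed to between 141 and 175 in SHR and between 87.1 and 116 in Dahl R, with SHR replicate 3 the highest. This and the later sums add unlogged signals of members usable on all 6 arrays, so the brightest members weigh most. Aqp2 carried most of this sum in both strains.

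**Figure D5:**
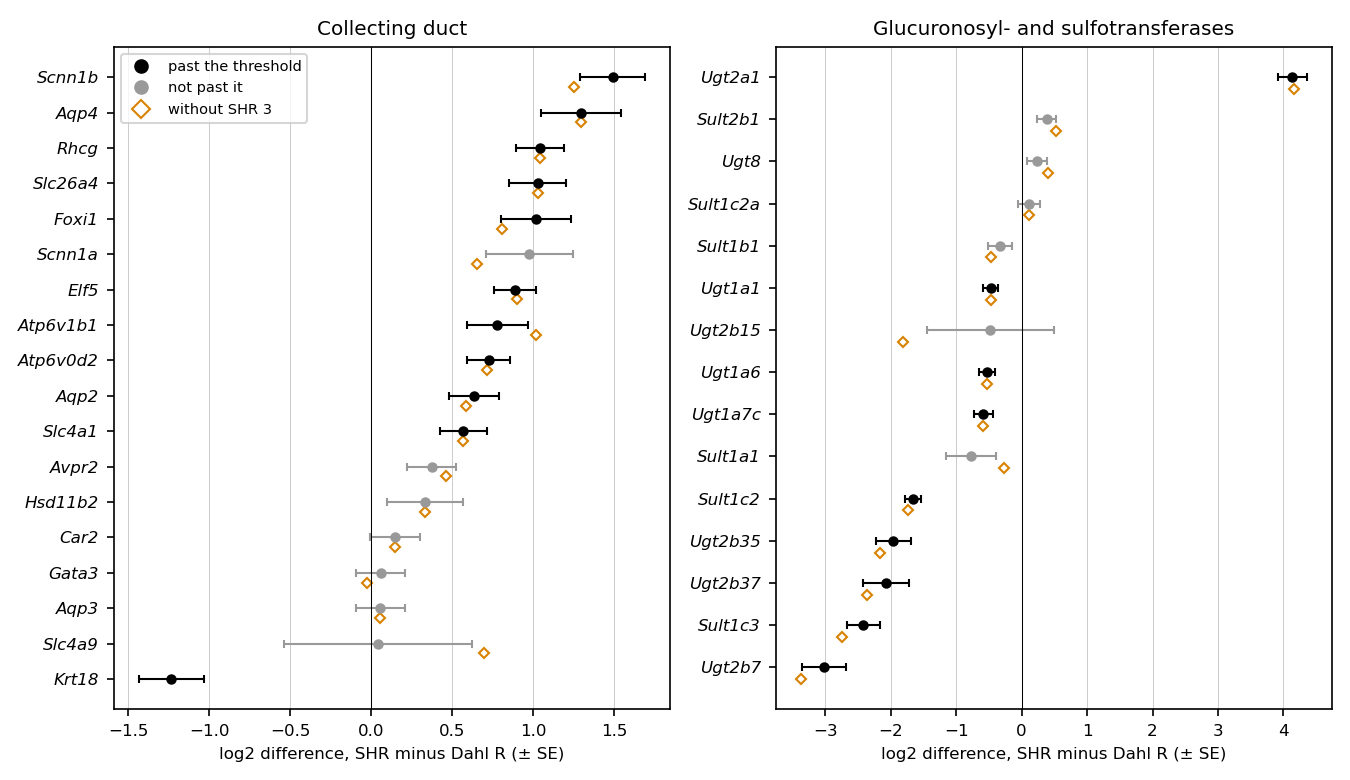
Difference between the strains (log2, SHR minus Dahl R, ± SE, horizontal axis) for the tested members of the collecting duct list (left) and of the glucuronosyl- and sulfotransferase list (right); black points were called, grey points were not, and orange diamonds give the difference without SHR 3 (none for Krt18, which had a usable spot on no other SHR array). On the left 17 of 18 members lie above 0, and on the right Ugt2a1 lies at 4.14 while 8 members were called lower, down to -3.02 for Ugt2b7.

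A smaller share of the markers of other segments was called than of the collecting duct list. In the proximal tubule list 0 of 19 members were called higher and 4 lower (the same counts without SHR replicate 3), with a median of -0.14. At an unadjusted p under 0.05 limma gave 0 higher and 6 lower. Of the 19 members 4 differed upwards, against 6411 of all 10688 tested coding genes. Slc4a4, the basolateral sodium-bicarbonate cotransporter, was at -0.95, -1.81 and -0.05 in SHR and 1.68, 1.75 and 1.49 in Dahl R, 5.96-fold lower without overlap (-2.58 ± 0.42, adjusted p = 0.00668). Without SHR replicate 3 its difference was -3.02. Gatm, which makes the creatine precursor guanidinoacetate, was 1.71-fold lower on 2 usable SHR arrays (-0.77 ± 0.12, adjusted p = 0.00968). Slc22a6 and Slc13a3, carriers of organic anions and of dicarboxylates, were lower by -0.57 and -0.62, but these calls were lost with 1 array left out: Slc22a6 without any of the Dahl R arrays, SHR replicate 1 or SHR replicate 2 (adjusted p of up to 0.117), Slc13a3 without Dahl R replicate 1 or 2 or SHR replicate 1 or 2 (up to 0.0797). Summed signals of 13 proximal tubule markers were 1162 to 1402 in SHR and 1228 to 1338 in Dahl R, so the strains overlapped. Gatm, Slc22a6 and Slc13a3 are not in this sum, since they had no usable spot on SHR replicate 3.

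In the thick ascending limb list 2 of 10 members were called higher and 1 lower (4 and 1 without SHR replicate 3), with a median of 0.29. Of these members 9 differed upwards, 8 without SHR replicate 3 and 7 within the shared slide. Cldn16, a tight junction protein needed for magnesium uptake, was at -0.13, -0.31 and -0.69 in SHR and 0.92, 0.94 and 0.89 in Dahl R, 2.45-fold lower (-1.29 ± 0.15, adjusted p = 0.00154). Kcnj1, the potassium channel ROMK, was higher by 0.54 on 2 usable SHR arrays, and that call was lost without any Dahl R array or SHR replicate 1 or 2 (adjusted p of up to 0.108). Umod, which encodes uromodulin, was at 7.79, 8.08 and 8.43 in SHR and 7.81, 8.09 and 7.88 in Dahl R, and the strains overlapped (0.17 ± 0.17, adjusted p = 0.541). Summed signals of 8 markers, Kcnj1 not among them, were 508 to 633 in SHR, the highest on SHR replicate 3, and 510 to 519 in Dahl R.

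Of 6 distal convoluted tubule markers, 4 differed upwards, and 1 was called higher and 0 lower (2 and 1 without SHR replicate 3). This was Trpv5, the calcium channel of that segment, at -2.37, -2.14 and -2.69 in SHR, where 2 of 3 arrays were well above background, and -4.83, -4.25 and -4.77 in Dahl R (2.22 ± 0.20, 4.65-fold, adjusted p = 0.000468). Slc12a3, the thiazide-sensitive sodium chloride cotransporter, was at 4.69, 4.33 and 5.41 in SHR and 4.65, 4.54 and 4.61 in Dahl R, overlapping (0.21 ± 0.25, adjusted p = 0.613). Summed signals of 6 markers were 158 to 198 in SHR and 115 to 146 in Dahl R, with SHR replicate 3 the highest.

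Among 30 sodium transport genes, 8 were higher and 1 lower (13 and 3 without SHR replicate 3; 4 and 1 within the shared slide), with a median of 0.30; with normexp 1 was higher and 1 lower, and with the percentile over unmarked spots 0 were called. The higher members included Scnn1b and Slc26a4, and the 1 lower member was Slc4a4. Kcnj16, a basolateral potassium channel subunit, was higher by 0.52 ± 0.10 on 2 usable SHR arrays, lost without any Dahl R array, SHR replicate 1 or SHR replicate 2 (adjusted p of up to 0.085). Nr3c2, the mineralocorticoid receptor, was higher by 0.43 ± 0.09, lost without any Dahl R array (up to 0.0942). Slc9a3, the main proximal sodium-proton exchanger, was at 3.83, 3.94 and 3.84 against 3.56, 3.55 and 3.56, a non-overlapping difference of 0.31 ± 0.09 just beyond the threshold (adjusted p = 0.0501; 0.028 without SHR replicate 3). Sgk1, the aldosterone-induced kinase that keeps sodium channels at the membrane, overlapped between strains (-0.30 ± 0.15, adjusted p = 0.244).

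The renin-angiotensin list had 3 of 14 members higher and 2 lower (2 and 2 without SHR replicate 3). Agt, the precursor of all angiotensins, was at 1.02, 1.04 and 0.42 in SHR and 2.14, 2.31 and 2.22 in Dahl R, 2.63-fold lower without overlap (-1.40 ± 0.17, adjusted p = 0.002; -1.19 without SHR replicate 3). Agtr1a, the main angiotensin II receptor, overlapped between the strains (0.24 ± 0.19, adjusted p = 0.454). Ace was on the array but below the signal needed for a test.

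Among peptidases, Prcp, a carboxypeptidase that can inactivate angiotensin II, was at -0.85, -1.02 and -2.01 in SHR and 1.99, 1.72 and 1.78 in Dahl R, 8.72-fold lower (-3.12 ± 0.29, adjusted p = 0.000502; -2.77 without SHR replicate 3). Anpep, the brush border aminopeptidase that shortens angiotensin III, was 1.90-fold higher on 2 usable SHR arrays (0.93 ± 0.14, adjusted p = 0.00722). These peptidases thus differed in opposite directions. Mas1, the receptor of an angiotensin breakdown peptide, was higher by 1.03 ± 0.25, lost without any Dahl R array or SHR replicate 2 (adjusted p of up to 0.116). Its difference was 0.73 without SHR replicate 3. Cma1, the mast cell chymase, was higher by 1.28 ± 0.33, lost without any Dahl R array or SHR replicate 2 (up to 0.142) and without SHR replicate 3 (0.064).

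Arachidonic acid enzymes differed in both directions. In the list for epoxides and hydroxylated products, 2 of 13 tested members were higher and 1 lower (4 and 3 without SHR replicate 3), with a median of 0.33, and all 3 calls held with each array left out. Beside Ephx2, Cyp2j4, an epoxygenase, was at -0.49, -0.22 and -1.05 in SHR and -2.83, -2.93 and -3.16 in Dahl R (2.38 ± 0.24, 5.22-fold higher, adjusted p = 0.000689). Cyp2c23, the main renal epoxygenase of the rat, was at 4.59 and 4.33 on 2 usable SHR arrays and 5.94, 5.91 and 6.01 in Dahl R (-1.49 ± 0.12, 2.82-fold lower, adjusted p = 0.000589). The hydrolase and 1 epoxygenase were thus higher while the other epoxygenase was lower. Cyp2c11, a male-type enzyme, was at -1.0, -0.30 and 0.86 against 1.79, 2.16 and 1.62, which missed the threshold with SHR replicate 3 (-2.0 ± 0.56, adjusted p = 0.0544) and passed without it (-2.51, adjusted p = 0.013).

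Of 17 prostaglandin genes, 5 were higher and 0 lower (7 and 0 without SHR replicate 3; 6 and 1 within the shared slide), with a median of 0.10, and 1 was lower at an unadjusted p under 0.05. Hpgds, the haematopoietic prostaglandin D synthase, was at -2.97, -2.58 and -2.21 in SHR with 2 of 3 arrays well above background, and at -4.56, -4.78 and -4.67 in Dahl R (2.09 ± 0.19, 4.25-fold, adjusted p = 0.000422). Ptgs1, the constitutive cyclooxygenase, was at 2.61, 2.79 and 2.66 against 1.67, 1.94 and 1.94 (0.84 ± 0.13, 1.79-fold, adjusted p = 0.00499). Hpgd, which inactivates prostaglandins, was higher as well (1.12 ± 0.20, 2.18-fold, adjusted p = 0.00913), so synthesis and breakdown enzymes were both among the higher genes. Ptges, a prostaglandin E synthase, was higher by 0.70 ± 0.13, lost without Dahl R replicate 1 (adjusted p = 0.0545). Slco2a1, the prostaglandin transporter, was higher by 1.15 ± 0.26 with 2 of 3 SHR arrays well above background, lost without any Dahl R array, SHR replicate 1 or SHR replicate 2 (up to 0.100). Its difference was 1.49 without SHR replicate 3.

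In the list of nitric oxide, natriuretic peptide and endothelin genes, 2 of 18 were higher and 3 lower, also without SHR replicate 3, with a median of 0.17. Ddah1, which degrades an inhibitor of nitric oxide synthase, was at 5.19, 4.89 and 5.66 in SHR and 6.68, 6.47 and 6.41 in Dahl R, 2.42-fold lower (-1.28 ± 0.19, adjusted p = 0.00455), and was the 1 call that held with each array left out. The endothelin receptor Ednrb (1.06 ± 0.23) and the natriuretic peptide receptor Npr1 (0.54 ± 0.13) were higher, each lost without any Dahl R array (adjusted p of up to 0.0822 and 0.127). The endothelin-converting enzyme Ece1 (-0.59 ± 0.12) was lower, lost without any Dahl R array or SHR replicate 2 (up to 0.0754). The peptide Edn3 was lower by -1.13 ± 0.26 with 2 of 3 SHR arrays well above background, lost without any Dahl R array, SHR replicate 1 or SHR replicate 2 (up to 0.109). Its difference was -1.41 without SHR replicate 3.

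Conjugation enzymes of drug and hormone metabolism were mostly lower in SHR. Of 15 tested glucuronosyl- and sulfotransferases, 8 were lower and 1 higher, 4 differed upwards, and the median was -0.53; without SHR replicate 3 the counts were 9 lower and 3 higher, and within the shared slide 6 and 1. With normexp 4 were lower and 0 higher, and with the percentile over unmarked spots 1 and 1. The medians were then -0.49 and -0.53, against 0.14 and 0.33 over all tested coding genes. Sult1c2 was at 2.53, 2.37 and 2.67 in SHR and 4.27, 4.05 and 4.24 in Dahl R, 3.16-fold lower (-1.66 ± 0.12, adjusted p = 0.000176). Ugt2b7 was at -2.62, -3.11 and -1.79 against 0.73, 0.05 and 0.76, 8.10-fold lower (-3.02 ± 0.34, adjusted p = 0.00124). Neither overlapped between strains. Ugt2b35 (-1.96 ± 0.26), Ugt2b37 (-2.08 ± 0.35) and, with 2 of 3 SHR arrays well above background, Sult1c3 (-2.42 ± 0.25) were lower too, and these 5 calls and that of Ugt2a1 held with each array left out. Without SHR replicate 3 the differences were -3.37 for Ugt2b7, -2.37 for Ugt2b37 and -2.74 for Sult1c3. The Ugt1a1, Ugt1a6 and Ugt1a7c probes were lower by -0.47 to -0.59; they belong to 1 locus with shared exons and are named after their values were seen, and their calls were lost with 1 array left out (Ugt1a1 without any Dahl R array or SHR replicate 1 or 2 at an adjusted p of up to 0.142, Ugt1a6 without any Dahl R array or SHR replicate 1 or 2 at an adjusted p of up to 0.118, Ugt1a7c without any Dahl R array or SHR replicate 1 or 2 at an adjusted p of up to 0.144). Ugt and Sult paralogs are alike in sequence, so a probe may also take signal from a relative.

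Organic ion and drug transporters likewise had 6 of 19 lower and 1 higher (8 and 1 without SHR replicate 3; 6 and 1 within the shared slide), with a median of -0.37. Slc17a3 was the 1 call that held with each array left out. Slc22a25, an organic anion carrier, was lower by -0.68 ± 0.13, lost without Dahl R replicate 2 or 3 (adjusted p of up to 0.0671). The efflux pumps Abcg2 (-0.51 ± 0.10) and Abcc2 (-0.52 ± 0.12) were lower, the first lost without any Dahl R array (up to 0.0752), the other without Dahl R replicate 1 or 3 or SHR replicate 1 or 2 (up to 0.100). The efflux pump Abcb1a was higher by 0.65 ± 0.16, lost without any Dahl R array, SHR replicate 1 or SHR replicate 2 (up to 0.131). The carnitine transporter Slc22a5, named after its value was seen, was lower by -0.37 ± 0.09, lost without any Dahl R array or SHR replicate 1 or 2 (adjusted p of up to 0.148).

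In the glutathione and antioxidant list 7 of 46 were lower and 3 higher (11 and 5 without SHR replicate 3), with a median of -0.22. Xdh led the higher genes, followed by the glutathione transferase Gstm2 at 0.15, 0.39 and 0.34 against -0.66, -0.52 and -0.83 (0.96 ± 0.12, 1.95-fold, adjusted p = 0.00209). Txn1, a thioredoxin that reduces protein disulfides, was lower on 2 usable SHR arrays (-0.80 ± 0.12, 1.75-fold, adjusted p = 0.00668). Gstt2 was at 2.13, 2.21 and 0.75 against 3.67, 3.76 and 3.35, with SHR replicate 3 the lowest (-1.90 ± 0.37, adjusted p = 0.0143; -1.42 without SHR replicate 3), lost without Dahl R replicate 1 or 2 (up to 0.063). Gstp1 was lower by -0.67 ± 0.12, lost without any Dahl R array or SHR replicate 2 (up to 0.0705). Gsta3 was lower by -0.75 ± 0.11 on its brighter probe, while its other probe read 1.42 higher. Gstm1, a transferase proposed as a candidate in hypertensive rats, overlapped between strains (-0.19 ± 0.17, adjusted p = 0.502).

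Lipid and bile acid genes split in direction. Of 32 fatty acid genes 5 were higher and 2 lower (8 and 3 without SHR replicate 3), with a median of 0.16. Acox2, a peroxisomal oxidase of branched fatty acids and bile acid precursors, was at 4.27, 4.29 and 4.46 in SHR and 1.27, 1.54 and 1.27 in Dahl R (2.98 ± 0.11, 7.87-fold higher, adjusted p = 4.04e-06). Cd36, the fatty acid translocase, was at -1.40, -0.86 and -0.55 against 1.67, 1.40 and 1.49 (-2.46 ± 0.22, 5.50-fold lower, adjusted p = 0.000412). Both were wide apart between strains. Acsm5, a medium-chain acyl-CoA synthetase (1.62 ± 0.17, 3.07-fold, adjusted p = 0.000897), and Cpt1b, the muscle-type carnitine palmitoyltransferase (0.88 ± 0.15, adjusted p = 0.00841), were higher. Slc27a1 (0.62 ± 0.14) and Cpt2 (0.47 ± 0.10) were higher but lost without any Dahl R array or SHR replicate 2, and Cpt2 also without SHR replicate 1 (adjusted p of up to 0.0984 and 0.105). The peroxisomal enzyme Ehhadh, named after its value was seen, was lower by -1.07 ± 0.23, lost without any Dahl R array or SHR replicate 1 (adjusted p of up to 0.0996).

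Of 16 bile acid genes 3 were higher and 4 lower (3 and 5 without SHR replicate 3), with a median of -0.02. To Nr1h4 and Cyp8b1 came Cyp27a1, the sterol 27-hydroxylase, at 1.74, 1.67 and 1.65 in SHR and 0.90, 1.03 and 1.04 in Dahl R (0.69 ± 0.09, 1.62-fold higher, adjusted p = 0.00277). The higher members were thus the receptor and enzymes of synthesis, and the 4 lower ones were transporters. Besides Slc10a2 and Abcc2 these were Slc51a, an exporter subunit (-1.02 ± 0.22, lost without Dahl R replicate 2 or 3, up to 0.0921), and Abcb11, the bile salt pump (-0.82 ± 0.18, lost without Dahl R replicate 2 or SHR replicate 1 or 2, up to 0.061).

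The thyroid hormone list, of 8 tested members, had 1 higher and 3 lower (1 and 5 without SHR replicate 3). After Dio1 came the receptor Thra, at -2.73, -3.79 and -4.53 against -0.95, -0.75 and -0.85 (-2.83 ± 0.41, adjusted p = 0.00399), whose other probe differed by -0.25. Klf9, a hormone-responsive transcription factor, was at -1.38, -1.64 and -2.91 against 0.32, 0.40 and 0.09 (-2.25 ± 0.37, 4.75-fold lower, adjusted p = 0.00757). SHR replicate 3 was the lowest array for both, and 2 of 3 SHR arrays were well above background for each. Without SHR replicate 3 the differences were -2.41 for Thra and -1.78 for Klf9. Thrsp, a hormone-responsive lipogenic gene, was higher by 1.40 ± 0.32 on 2 usable SHR arrays, lost without Dahl R replicate 1 or 2 or SHR replicate 1 or 2 (adjusted p of up to 0.112).

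Interferon-response genes did not share a direction. Of 34 tested members 6 were higher and 3 lower, with a median of 0.04; without SHR replicate 3 the counts were 6 and 6. After Ifit1 and Dtx3l the next higher member was Ifih1, a sensor of double-stranded viral RNA, at -0.28, -0.26 and -0.36 in SHR and -1.02, -1.02 and -0.88 in Dahl R (0.67 ± 0.09, 1.59-fold, adjusted p = 0.00294). Mx2, a dynamin-like antiviral GTPase, was at 0.41, 0.74 and 0.04 against 1.88, 1.99 and 2.06 (-1.58 ± 0.17, 2.99-fold lower, adjusted p = 0.00104). Ifi27, an interferon-inducible membrane protein, was at 3.54 and 3.31 on 2 usable SHR arrays against 4.26, 4.25 and 4.41 (-0.88 ± 0.11, 1.84-fold lower, adjusted p = 0.00416). The strains did not overlap for any of these, and all 6 genes of the list named here, Ubd included, kept their call with each array left out. The other called members, named after their values were seen, were Ifit3 (0.66 ± 0.14), Lgals3bp (0.63 ± 0.15) and Irf7 (0.44 ± 0.10), which were lost with 1 array left out (Ifit3 without any Dahl R array at an adjusted p of up to 0.0849, Lgals3bp without any Dahl R array or SHR replicate 2 at an adjusted p of up to 0.111, Irf7 without any Dahl R array or SHR replicate 2 at an adjusted p of up to 0.0992).

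The promoter windows of 3 members called in either direction are shown to set their sequences beside these opposed differences: the 250 bases before the gene start, from RefSeq on build GRCr8, written 5′ to 3′ on the strand of the gene. Capitals mark matches to the core of the interferon-stimulated response element, a pair of GAAA with any 2 bases between them, searched on both strands. The windows are chr3:67683969-67684218, minus strand, for Ifih1 (higher in SHR), chr6:128355062-128355311, plus strand, for Ifi27 (lower), and chr11:78319975-78320224, plus strand, for Dtx3l (higher).
Ifih1: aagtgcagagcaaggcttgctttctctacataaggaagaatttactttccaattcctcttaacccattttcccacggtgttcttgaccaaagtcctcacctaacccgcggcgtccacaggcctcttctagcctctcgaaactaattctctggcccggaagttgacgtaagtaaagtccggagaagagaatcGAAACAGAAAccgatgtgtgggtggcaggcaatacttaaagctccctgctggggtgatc
Ifi27: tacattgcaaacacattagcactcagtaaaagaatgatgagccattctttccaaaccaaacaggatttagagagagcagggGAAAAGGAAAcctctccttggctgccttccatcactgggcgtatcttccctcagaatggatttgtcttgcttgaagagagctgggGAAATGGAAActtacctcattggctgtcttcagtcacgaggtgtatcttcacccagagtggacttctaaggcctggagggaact
Dtx3l: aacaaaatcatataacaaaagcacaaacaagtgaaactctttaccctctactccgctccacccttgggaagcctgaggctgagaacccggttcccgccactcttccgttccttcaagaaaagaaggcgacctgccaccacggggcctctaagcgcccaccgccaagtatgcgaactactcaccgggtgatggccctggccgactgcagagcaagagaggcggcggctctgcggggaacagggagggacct

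Ifih1 has 1 match, starting 59 bases before the gene start, Ifi27 has 2, at 169 and 84 bases, and Dtx3l has 0, which says only that these letters are not in this window. Of the 27 list members with a promoter in the table, 18 hold a match (66.7%), against 902 of 27457 promoters of that length in all (3.29%). A match is a description of the reference sequence, not a site shown to act, and these are not the sequences of SHR or Dahl R. The promoter table held 109 of the 132 named coding genes.

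Histocompatibility genes also differed both ways, with 5 of 27 members higher and 3 lower (the same counts without SHR replicate 3) and a median of 0.20. Higher were class I genes: RT1-CE5 at 1.47 and 1.0 on 2 usable SHR arrays against -1.85, -1.55 and -1.64 in Dahl R (2.91 ± 0.19, 7.54-fold, adjusted p = 0.000213), RT1-CE1 (2.26 ± 0.15, 4.80-fold, adjusted p = 0.000243) and RT1-CE16 (1.1 ± 0.13, 2.14-fold, adjusted p = 0.00239). The other tested probe of RT1-CE5 differed by 1.00. Tap1, which carries peptides to class I molecules, was at 3.00, 2.82 and 2.84 against 1.87, 1.86 and 1.87 (1.02 ± 0.09, 2.02-fold, adjusted p = 0.000316). Lower were class II genes: beside RT1-Bb, RT1-Db1 was at 2.73, 2.54 and 1.83 against 4.22, 4.22 and 4.05 (-1.80 ± 0.22, 3.48-fold, adjusted p = 0.0019). The remaining calls, named after their values were seen, were the class I genes RT1-A1 (1.17 ± 0.31; adjusted p = 0.0586 without SHR replicate 3) and RT1-CE10 (-1.29 ± 0.28), of which RT1-A1 was lost without Dahl R replicate 3 or SHR replicate 1, 2 or 3 (adjusted p of up to 0.0927) and RT1-CE10 without any Dahl R array or SHR replicate 1 or 2 (adjusted p of up to 0.0931). RT1 genes are highly variable between strains and alike among themselves, so their probes may read sequence as well as amount; this was not tested.

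Kidney injury genes had 4 of 29 lower and 1 higher, with a median of -0.18 (4 and 2 without SHR replicate 3), and none of these calls held with each array left out. Havcr1, known as kidney injury molecule, was at -3.09, -3.10 and -3.16 in SHR, with 2 of 3 arrays well above background, and -1.75, -1.85 and -2.32 in Dahl R (-1.15 ± 0.29, adjusted p = 0.0407). Its strains did not overlap, but its call was lost without any 1 of the 6 arrays (adjusted p of up to 0.14; 0.0557 without SHR replicate 3). Lcn2, a tubular stress marker, overlapped (-0.64 ± 0.39, adjusted p = 0.326). Krt19 was higher by 0.89 ± 0.17, lost without Dahl R replicate 1 or 3 (up to 0.0588). Tff3 was lower by -0.79 ± 0.14, lost without SHR replicate 1 (0.0607), and Prom1 by -0.89 ± 0.21, lost without any Dahl R array (up to 0.109); Krt18 rests on SHR replicate 3 alone.

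The rat hypertension candidates, genes proposed in earlier rat strain work, had 3 of 33 higher and 6 lower (4 and 6 both without SHR replicate 3 and within the shared slide), with a median of -0.07. Resp18, a protein of the secretory pathway, was at 1.41, 1.37 and 1.57 in SHR and -1.97, -1.99 and -2.66 in Dahl R (3.65 ± 0.19, 12.6-fold higher, adjusted p = 2.72e-05). Endog, a mitochondrial nuclease linked to heart size, was at -2.03, -2.06 and -2.33 against 0.14, 0.03 and 0.10 (-2.23 ± 0.10, 4.70-fold lower, adjusted p = 1.39e-05), with 2 of 3 SHR arrays well above background. Both were tightly grouped by strain. Sorcs2, a sorting receptor, was at -0.09, -0.07 and 0.25 against 1.86, 2.10 and 1.90 (-1.92 ± 0.14, 3.78-fold lower, adjusted p = 0.00016). Ephx2, Cd36, Agt, Kcnj16 and Edn3 of this list are described above, and Nr2f2, named after its value was seen, was lower by -1.34 ± 0.26, lost without Dahl R replicate 1 or 2 (adjusted p of up to 0.0645).

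Smaller lists gave single genes. Areg, a ligand of the EGF receptor, was at 1.54, 1.54 and 1.27 in SHR and -2.16, -1.75 and -2.16 in Dahl R (3.47 ± 0.22, 11.1-fold higher, adjusted p = 8.11e-05) and was the 1 of 11 EGF family genes called; Egf overlapped (0.09 ± 0.11, adjusted p = 0.628). Of 19 immediate early genes 3 were higher and 0 lower (4 and 1 without SHR replicate 3). Dusp1, a phosphatase of MAP kinases, was higher by 0.66 ± 0.10 (adjusted p = 0.00433). Egr1 was at -2.27, -2.22 and -3.54 against -3.82, -4.41 and -4.80 (1.66 ± 0.39), with 2 of 3 SHR arrays well above background, lost without Dahl R replicate 2 or 3 or SHR replicate 1 or 2 (adjusted p of up to 0.103), and Klf6 was higher by 0.57 ± 0.15, lost without any 1 of the 6 arrays (up to 0.146). The difference of Egr1 was 2.10 without SHR replicate 3. Of 17 proliferation genes 0 were called by limma, with 2 higher and 1 lower at an unadjusted p under 0.05, and 0 were called without SHR replicate 3 or within the shared slide.

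Of 14 clock genes 3 were higher and 1 lower (3 and 2 without SHR replicate 3), 0 within the shared slide (4 and 1 there at an unadjusted p under 0.05), and none of the calls held with each array left out. Dbp, a clock output factor, was at 4.88, 5.04 and 5.28 against 4.14, 4.63 and 4.14 (0.76 ± 0.17, adjusted p = 0.0254), lost without Dahl R replicate 1 or 3 or SHR replicate 2 (up to 0.0979). Per3 (1.12 ± 0.27) and Wee1 (0.50 ± 0.12) were higher, lost without any Dahl R array or SHR replicate 2 (up to 0.117 and 0.119), and Bhlhe40 was lower (-0.87 ± 0.19), lost without Dahl R replicate 1 or 2 or SHR replicate 2 (up to 0.0986). The difference of Per3 was 0.79 without SHR replicate 3. Bmal1, the core activator, differed by -0.60 ± 0.17 without overlap and missed the threshold (adjusted p = 0.052; 0.0049 without SHR replicate 3); Per1 overlapped (0.23 ± 0.18, adjusted p = 0.435). The time of day at which the kidneys were taken is not in the labels.

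Markers of cells outside the nephron were read to see what else moved with these genes. Of 19 leukocyte markers 14 were well above background on all 3 SHR arrays and 16 on all 3 Dahl R arrays, 1 was higher and 3 lower, and their summed signal over 15 markers was 36.1 to 47.7 in SHR and 43.0 to 48.4 in Dahl R, overlapping. Mrc1, a macrophage mannose receptor, was at -0.79, -0.77 and -0.68 against 0.26, 0.04 and 0.22 (-0.92 ± 0.15, 1.89-fold lower, adjusted p = 0.00656), and Cx3cr1, a fractalkine receptor, was lower by -0.62 ± 0.10 (adjusted p = 0.00771) with 2 of 3 SHR arrays well above background. Cd8a was lower (-0.89 ± 0.19) and Itgam higher (1.09 ± 0.28), both lost without any Dahl R array and Itgam also without SHR replicate 1 (adjusted p of up to 0.0784 and 0.143). Whether these cells play a part in the class II or cytokine differences was not tested.

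Red cell markers had 2 of 9 higher, Slc4a1 among them, and 1 lower, Hba-a3, with Hba-a1 below the signal filter. The summed signal of 7, without Slc4a1, was 477 to 572 in SHR and 484 to 517 in Dahl R, overlapping. Of 9 fat cell markers 2 were higher: Lpl, a lipase, by 1.83 ± 0.30 on 2 usable SHR arrays (lost without SHR replicate 2, adjusted p = 0.0528), and Ucp1, the uncoupler of brown fat, by 1.38 ± 0.32 on 2 usable arrays of each strain (lost without any Dahl R array or SHR replicate 2, up to 0.191). All 9 were well above background on every array of both strains, while Lep was below the signal filter. The summed signal of 6 fat markers, without Lpl and Ucp1, was 26.1 to 36.3 in SHR and 27.7 to 34.5 in Dahl R, overlapping. Of 5 adrenal cortex markers, with Star and Cyp11b2 below the signal filter, 2 were lower, the steroid enzymes Hsd3b2 (-1.93 ± 0.38 with 2 of 3 SHR arrays well above background; -2.40 without SHR replicate 3) and Hsd3b1 (-1.46 ± 0.40), lost without Dahl R replicate 1 or 2 (up to 0.065) and without any Dahl R array (up to 0.149). Their summed signal was 0.829 to 2.01 in SHR and 1.74 to 1.93 in Dahl R, also overlapping.

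Vascular and stromal lists gave few calls with all arrays. Without SHR replicate 3 the endothelium list had 3 of 7 higher and 0 lower, and the podocyte list 2 of 10 higher and 1 lower. The podocyte median was -0.27 with all arrays and 0.14 without SHR replicate 3. The smooth muscle and fibroblast lists each had 0 higher and 1 lower without it. Ptpro, a podocyte phosphatase, was at -0.88, -0.95 and 1.65 in SHR and 2.40, 2.10 and 2.31 in Dahl R, with SHR replicate 3 nearer Dahl R than the other SHR arrays (-2.33 ± 0.62, adjusted p = 0.0454; -3.19 without SHR replicate 3, adjusted p = 4.6e-06). That call was lost without any Dahl R array, SHR replicate 1 or SHR replicate 2 (up to 0.138), and with all arrays it was the only 1 among 10 podocyte markers. Summed signals of 7 podocyte markers were 16.3 to 25.8 in SHR and 17.2 to 17.6 in Dahl R. Emcn of the endothelium was higher by 0.62 ± 0.13 (1 of 7 called), lost without any Dahl R array (up to 0.0799), and the summed signal of 6 endothelial markers was 42.7 to 58.4 in SHR and 32.0 to 33.8 in Dahl R, without overlap; SHR replicate 3 was highest in both sums. Emcn, at 4.93, 5.06 and 5.40 in SHR and 4.52, 4.45 and 4.56 in Dahl R, carried most of the endothelial sum. Mcam of vascular smooth muscle was lower by -0.69 ± 0.12 (1 of 6, adjusted p = 0.00873), with sums of 4.08 to 6.91 and 6.26 to 6.61. The other probe of Mcam differed by -0.31. Loxl2, a matrix cross-linking enzyme, was lower by -1.97 ± 0.31 (adjusted p = 0.00587) with 2 of 3 SHR arrays well above background, and Postn higher by 1.22 ± 0.33, lost without any Dahl R array, SHR replicate 2 or SHR replicate 3 (up to 0.167; 0.067 without SHR replicate 3); these were the 2 calls among 14 fibroblast and matrix genes, whose sums overlapped at 86.8 to 90.3 and 82.6 to 106.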

How the data were processed

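Kidney RNA of 3 SHR and 3 Dahl R rats was compared on 1 one-colour array per rat; the 3 Dahl S arrays entered the fit. The scanner files the authors deposited came from Agilent Feature Extraction (version 10.5.1.1 in the submitters' processing notes). Their main column is a processed intensity, already background-subtracted but not normalized between arrays per the file headers. Other deposited columns mark spots that were well above background or outliers. The authors' deposited table of processed values was read as log2, since each column correlated with the log2 scanner signal of its array at r of 0.974 to 1.00; column medians were 9.63 to 9.64, and its normalization stays unknown. It served only as an alternative.

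Processed signals were taken to log2 and scaled by subtracting the array's 75th percentile (in log2, non-control spots), outlier spots were set to missing, and spots of a probe were averaged. Testing needed detection (a share of 0.5 or more of a probe's spots well above background) on at least 3 of the 6 arrays and a usable spot in both strains: 16300 passed the signal filter, of which 26 lacked such a spot, leaving 16274. No spot was saturated (0 on each array). Symbols came from RefSeq by accession for 14266 of 15365 coding probes; probe names gave the class. For 248 genes with several tested probes, the brightest probe by its mean over the 6 arrays was used.

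Differences were tested with limma 3.58.1 in R 4.3.3 (lmFit, contrasts.fit, eBayes) over all 9 arrays, which share 1 estimate of the spread per probe, with Benjamini-Hochberg adjustment at 0.05; the code was tested on simulated data. The genes named were the 12 coding genes and 5 noncoding probes with the largest differences each way among called, non-overlapping probes, up to 6 called members per list by adjusted p, and a fixed set of kidney genes; some genes under this rule are not reported here. Members and lists were chosen with earlier results of these data known. Replicate numbers were not treated as pairs. Deviations from the strain mean correlated at -0.07, 0.06 and -0.10 for same-numbered arrays and at -0.14 to 0.12 for differently numbered ones. Deviations from a mean of 3 arrays depend on each other, so these values cannot show whether the numbers pair the samples. Of the fixed genes, Ace, Prkg2 and Akr1b7 had too little signal to test, and Scnn1g and Slc12a1 were not found under these names.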

Additional observations from a re-analysis of the deposited data

How the results depend on the processing

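Of the 2219 probes called, 1288 higher and 931 lower, 426 (174 and 252) were called with normexp background correction, 484 (257 and 227) with the 75th percentile over unmarked spots, 1188 (643 and 545) with no filter on signal, 1171 (623 and 548) with the 6 arrays alone, 4193 (2324 and 1869) with array weights and 914 (411 and 503) when a difference of at least 2-fold was also asked. Quantile normalization (2073), the authors' table (1829), the filter on all 6 arrays (2001), outlier spots kept (1975) and slide as a block (2679) stayed within 1.5 times. The median difference of all probes was 0.10, and 0.36 with the percentile over unmarked spots, so differences there are relative to that shift. With 1 array left out the total ran from 999 to 3788, higher calls from 516 to 2050 and lower calls from 483 to 1738; an alternative added after the data were seen, without SHR replicate 3 and with the signal filter on the other 5 arrays, gave 3782 (2044 and 1738). With the replicate number as a block 1486 were called, 784 higher and 702 lower. Whether the numbers pair the samples is not known. Of the 129 called named probes, 59 passed with normexp and 60 with the percentile over unmarked spots. Of the 130 called list genes, 43 passed with normexp, 47 with the percentile over unmarked spots, 73 with no filter on signal, 79 with the 6 arrays alone, 73 at 2-fold, and 73 to 173 with 1 array left out. The cause of these changes was not tested.

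No called named gene changed direction in any of these settings. Uncalled ones did: Gstm1 to 0.10 with the percentile over unmarked spots; with array weights Slc12a3 to -0.10; with slide as a block, and equally within the shared slide, Slc12a3 to -0.067 and Umod to -0.051. With 1 array left out Slc12a3 ran from -0.092 to 0.45 and Egf from -0.0088 to 0.14; without SHR replicate 3, also with the filter on the other 5 arrays, Slc12a3 was at -0.092. Signal over background limits SHR replicate 3 most, where 65.2% of the tested probes were well above background against 96.8% and 99.0% on SHR replicates 1 and 2. The lowest signal on that array was 52.5 against 3.69 to 9.29 on the others, and 1958 of the tested probes are missing. With 3 arrays per strain, of which 2 SHR arrays share a slide with 2 Dahl R arrays, litter and preparation cannot be told apart from strain.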

Other observations

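Large differences were sometimes close to each other in the gene order of the RefSeq table; the runs below were named after their values were seen and are values only. Of 152 genes called with a difference of at least 2 on the log2 scale, 30 had another such gene among the 5 tested genes on either side (19.7%), against 12.7% of all tested genes. They formed 13 runs, of which 8 ran in 1 direction throughout. The longest held 5 class I histocompatibility genes: RT1-CE15 (2.92 ± 0.14, SE), RT1-CE5 (2.91 ± 0.19 on its brighter probe), RT1-CE3 (2.54 ± 0.16), RT1-CE1 (2.26 ± 0.15) and RT1-CE13 (2.15 ± 0.16), all higher in SHR. These paralogs are alike in sequence, so their probes may not be independent. Another run was split: Ugt2a1 was higher in SHR (4.14 ± 0.22) while Ugt2b37 (-2.08 ± 0.35) and Ugt2b7 (-3.02 ± 0.34), a few places further on, were lower.

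Neighbouring Ly6 genes, which encode small membrane-anchored surface proteins, also went opposite ways. Ly6i had a mean level of 0.45 ± 0.28 (SD, n = 3) in SHR and -2.69 ± 0.28 in Dahl R, a difference of 3.14 ± 0.20 (limma adjusted p = 7.74e-05), and Ly6al had -1.62 ± 0.07 in SHR and 1.06 ± 0.26 in Dahl R, a difference of -2.68 ± 0.14 (adjusted p = 2.44e-05). Bcl9l, a coactivator of Wnt signalling, differed by -4.04 ± 0.16 (adjusted p = 8.14e-06) and Ddx6, an RNA helicase next to it, by -2.31 ± 0.38 (adjusted p = 0.00721), both lower in SHR. Pdia5, a protein disulfide isomerase that lies 3 tested genes from Dtx3l, was higher by 2.33 ± 0.08 (adjusted p = 4.04e-06).

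By kind of name, the share of tested noncoding probes that were called was 8.21% of 780 probes of the XR_ class (34 higher, 30 lower), 8.22% of 219 uc. probes (3 higher, 15 lower) and 16.1% of 726 BC probes (83 higher, 34 lower). It was 19.4% of only 31 MRBC probes and 29.6% of only 27 MRNR_ probes. The MRAK probes had 126 higher and 104 lower of 1770, and the MRuc probes 28 higher and 18 lower of 331. These are counts, and differences between the kinds were not tested.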
